A study of Mus musculus with 32 samples.

Results

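This account sets cells driven towards the germ line by 3 transcription factor transgenes, called BP14A cells, against cells driven by cytokines, called Ck-PGCLCs, both at day 2 of induction. The comparison uses 4 of the 32 arrays of the study, namely 2 of BP14A cells and 2 of Ck-PGCLCs chosen by their titles, and 15497 tested genes of the 18193 annotated genes on the array. Primordial germ cell-like cells (PGCLCs) are an in vitro model of the first germ cells, and EpiLCs, the epiblast-like cells derived from mouse embryonic stem cells, are their starting population. The study asked how the 3 factors alone compare with cytokines in giving rise to such cells.

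BP14A cells carried doxycycline-inducible piggyBac transgenes for Avi-tagged Blimp1 (gene Prdm1, the B of the name), 3xFLAG-tagged Prdm14 (P14) and V5-tagged Tfap2c (A), each driven by a tetO and minimal CMV promoter. They were treated with doxycycline at 1.5 μg/ml, and their labels name no cytokine. Ck-PGCLCs were made from the parental clone, which has none of these factor transgenes, with LIF (1000 U/ml), stem cell factor (100 ng/ml), EGF (50 ng/ml) and the bone morphogenetic proteins BMP8A (500 ng/ml) and BMP4 (500 ng/ml). Another group, parental +Dox cells at day 2, is the same parental clone with doxycycline alone. Its labels do not state whether it passed through the EpiLC stage. EpiLCs of the parental clone at 36 h, from which 2000 cells per well were aggregated, give the levels at the start. All of these cells were male, of mixed C57BL/6 and 129 strain background, and carried Blimp1-mVenus, stella-ECFP and Rosa26-rtTA. No sorting step is named for either PGCLC group. Clone and treatment cannot be told apart between these groups, since doxycycline with the transgenes was given to 1 clone and the cytokines to the other. No label names separate cultures for the 2 arrays of a group. The p-values therefore measure only the spread between arrays of the same group, pooled over the 16 groups of the study.

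Primordial germ cells arise from the epiblast in response to BMP4, with WNT acting earlier to make the epiblast responsive. The transcription factors Prdm1, Prdm14 and Tfap2c then silence the somatic programme, restore genes of naive pluripotency and start epigenetic reprogramming. Cytokine induction in culture passes through a phase in which genes of the primitive streak, the source of mesoderm, are switched on before they are silenced again. In the embryo, many genes of meiosis and of late germ cell development rise once germ cells reach the gonad.

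All values are log2 intensities, and 1 unit is a 2-fold difference. Differences are BP14A minus Ck-PGCLC, from 1 limma model of all 32 arrays, and a call needs both a 2-fold difference and a p under 0.05 after Benjamini-Hochberg adjustment over all tested genes. Values under 4.05 fall in the lowest 40% of all values, and differences between such levels are less certain. Where only 1 of the groups lies under 4.05, the size of the difference is uncertain. The 2 BP14A arrays correlated at r = 0.977 over the tested genes and the 2 Ck-PGCLC arrays at r = 0.985, while arrays of different groups correlated between 0.917 and 0.930. Array medians as deposited ran from 4.62 to 4.78. The PGC markers named for this purpose averaged 9.99 and 9.91 in BP14A cells and 8.14 and 8.18 in Ck-PGCLCs. Of the measured markers, 7 of 7 were over 4.05 on 3 arrays and 6 of 7 on the other. These markers include Prdm1, Prdm14 and Tfap2c, the genes of the BP14A transgenes. The primitive streak and mesoderm markers averaged 4.05 and 3.97 in BP14A cells and 8.91 and 9.09 in Ck-PGCLCs. Neural markers averaged between 1.92 and 2.86 in BP14A cells and between 3.1 and 3.12 in Ck-PGCLCs. Nanos3 and T were not analysed here. In bulk RNA, fewer cells of a type and less RNA per cell cannot be told apart.

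At day 2, 860 genes were higher and 1086 lower in BP14A cells than in Ck-PGCLCs, together 12.6% of the genes tested, with 5.55% higher and 7.01% lower. The large differences lay mostly on the lower side, since 252 genes were at least 4-fold higher and 496 at least 4-fold lower, 14 at least 16-fold higher and 94 at least 16-fold lower, and 0 at least 64-fold higher and 18 at least 64-fold lower. The arrays of the groups did not overlap for 59.2% of all genes tested, so separation of the arrays alone says little about a single gene. Over all tested genes the median difference was 0.05. Rhox9, Dazl and Rhox6, which are germ cell genes, were among the 15 largest rises, and Hoxb1, Fst, Cdx2, Gbp2 and Evx1 among the 15 largest falls.

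**Figure D1:**
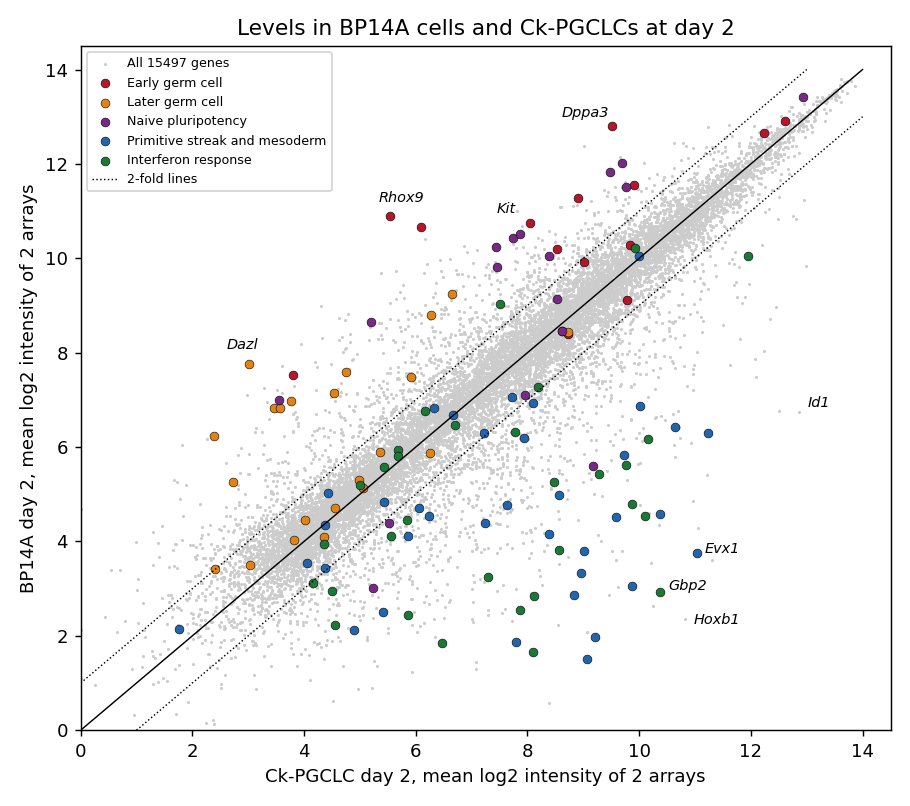
Mean log2 intensity of 2 arrays in BP14A cells (vertical axis) against Ck-PGCLCs (horizontal axis) at day 2 for all 15497 tested genes (grey) and 5 gene lists (colours). Dotted lines mark 2-fold differences. Germ cell genes such as Rhox9, Dazl and Dppa3 sit above the lines, and Hoxb1, Evx1, Gbp2 and Id1 far below them.

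BP14A cells had more RNA of 8 of the 15 early germ cell genes tested, and 0 were lower, with a median difference of 1.65. The list held 17 genes, 16 of them measured. It includes genes of the BP14A transgenes, with Prdm1 and Tfap2c among the rises, so its count and median partly reflect the introduced factors' own genes. Dppa3 (Stella), a maternal and germ cell protein that protects DNA methylation marks, read 12.91 and 12.70 in BP14A cells and 9.34 and 9.69 in Ck-PGCLCs. Both BP14A arrays lay more than 3 units above both Ck-PGCLC arrays, a 9.78-fold rise (log2 3.29, SE 0.25, limma adjusted p = 1.21e-08). Kit, the receptor for stem cell factor that germ cells need for survival and migration, read 10.82 and 10.68 in BP14A cells and 8.02 and 8.08 in Ck-PGCLCs. It rose by 2.70 (SE 0.26, limma adjusted p = 1.75e-07), whereas Kitl, which codes for its ligand, fell by 3.54, with 5.90 and 6.44 in BP14A cells and 9.79 and 9.64 in Ck-PGCLCs.

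The X-linked Rhox genes, homeobox genes expressed in germ cells and reproductive tissue, gave some of the steepest rises. Rhox9 read 11.03 and 10.77 in BP14A cells and 5.49 and 5.57 in Ck-PGCLCs, a 41.3-fold rise and the largest of all named genes (log2 5.37, SE 0.43, limma adjusted p = 2e-08). Rhox6 read 10.90 and 10.44 in BP14A cells and 6.10 and 6.08 in Ck-PGCLCs (log2 4.58, SE 0.39). Itgb3, an integrin used as a surface marker of PGCLCs, read 7.34 and 7.72 in BP14A cells and 4.15 and 3.47 in Ck-PGCLCs (log2 3.72, SE 0.46). For each of these genes both BP14A arrays were above both Ck-PGCLC arrays.

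The genes of the 3 transgenes did not behave alike. Tfap2c, an AP-2 family activator needed for germ cell maintenance, read 11.67 and 11.44 in BP14A cells and 9.87 and 9.94 in Ck-PGCLCs, a rise of 1.65 (SE 0.29, limma adjusted p = 3.08e-04). Its 2 other probe sets differed by 2.16 and 2.42 in the same direction. Prdm1, the repressor of the somatic programme, read 10.25 and 10.13 in BP14A cells and 8.51 and 8.52 in Ck-PGCLCs, a rise of 1.67 (SE 0.33). Prdm14, which restores pluripotency and represses de novo methylation, read 8.61 and 8.32 in BP14A cells and 8.44 and 8.78 in Ck-PGCLCs. The arrays of the 2 groups overlapped for Prdm14, and its difference of -0.14 (SE 0.25, limma adjusted p = 0.768) was not called. Parental +Dox cells averaged 2.86 for Prdm14, 5.63 for Prdm1 and 7.14 for Tfap2c. Whether these probe sets detect the transgene RNA was not examined. Dnd1, an RNA-binding protein that protects germ cell transcripts, was not called either, with 8.35 and 8.42 in BP14A cells and 8.69 and 8.77 in Ck-PGCLCs.

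**Figure D2:**
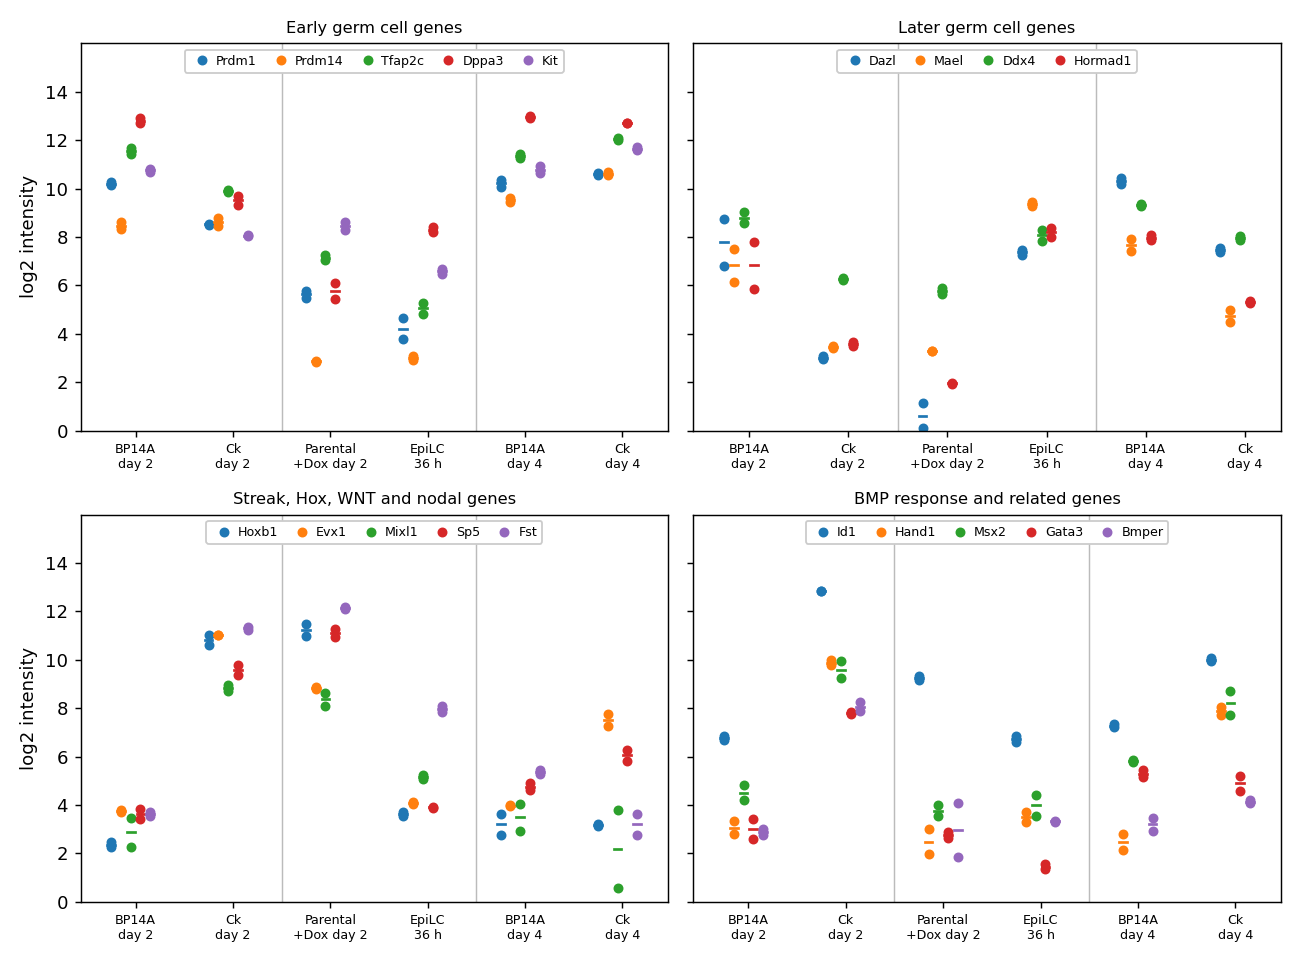
log2 intensity of each array (points) and the mean of 2 arrays (bars) for 19 genes in BP14A cells and Ck-PGCLCs at day 2, parental +Dox cells at day 2, EpiLCs at 36 h, and BP14A cells and Ck-PGCLCs at day 4. Dppa3 is near 12.8 in BP14A cells and 9.51 in Ck-PGCLCs at day 2, Hoxb1 and Fst are high in Ck-PGCLCs and parental +Dox cells alike, and Hand1, Msx2, Gata3 and Bmper are high in Ck-PGCLCs but not in parental +Dox cells.

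Genes of later germ cell development and meiosis were higher in BP14A cells too, in 11 of 22 tested cases with 0 lower and a median difference of 1.29, or 0.85 with no filter on low values. The list held 27 genes, of which 25 were measured. The promoters of the 4 called members with the largest differences and a RefSeq entry are shown because later germ cell genes are known to be repressed in other cells by a complex that recognises the E-box CACGTG, which stands in capitals. Sequences are 300 bases long, from 250 before to 50 after the annotated start, and come from RefSeq on GRCm38.p6. Dazl lies at chr17:50293571-50293870, Smc1b at chr15:85131908-85132207 and Mael at chr1:166238695-166238994, all on the minus strand, and Hormad1 at chr3:95559427-95559726 on the plus strand.
Dazl: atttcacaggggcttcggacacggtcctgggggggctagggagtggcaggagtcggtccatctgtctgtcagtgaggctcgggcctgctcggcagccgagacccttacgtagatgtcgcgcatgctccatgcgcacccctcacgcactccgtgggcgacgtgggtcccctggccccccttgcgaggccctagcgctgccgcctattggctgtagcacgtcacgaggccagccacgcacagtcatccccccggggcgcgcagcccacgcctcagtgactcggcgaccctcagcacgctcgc
Smc1b: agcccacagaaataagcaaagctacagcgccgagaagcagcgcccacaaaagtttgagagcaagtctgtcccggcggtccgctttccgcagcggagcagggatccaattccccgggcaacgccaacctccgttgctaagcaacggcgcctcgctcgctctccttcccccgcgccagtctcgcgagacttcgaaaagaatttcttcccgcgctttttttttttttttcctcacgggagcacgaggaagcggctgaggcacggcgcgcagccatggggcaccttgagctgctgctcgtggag
Mael: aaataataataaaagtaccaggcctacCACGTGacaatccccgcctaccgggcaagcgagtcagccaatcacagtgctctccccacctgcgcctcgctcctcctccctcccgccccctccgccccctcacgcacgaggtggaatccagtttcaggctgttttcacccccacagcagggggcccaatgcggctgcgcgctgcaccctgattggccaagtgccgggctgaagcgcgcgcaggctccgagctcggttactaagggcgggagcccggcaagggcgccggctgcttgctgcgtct
Hormad1: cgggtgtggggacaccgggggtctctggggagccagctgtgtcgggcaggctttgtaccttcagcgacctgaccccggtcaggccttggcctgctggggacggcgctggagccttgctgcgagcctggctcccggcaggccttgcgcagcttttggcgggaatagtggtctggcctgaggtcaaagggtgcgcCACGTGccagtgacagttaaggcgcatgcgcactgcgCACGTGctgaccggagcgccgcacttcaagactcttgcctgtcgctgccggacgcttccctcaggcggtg
Searched on both strands, CACGTG occurred in 6 of the 9 called members that had a promoter entry, against 7.24% of all 27025 promoters. Among the 4 shown it stands once in Mael, first base 223 before the start, and in Hormad1 at 57 and 20 before the start, and no match was found in these windows of Dazl and Smc1b. The E2F-type motif GGCGCC occurred in 4 of the 9, against 12% of all promoters, and the AP-2-type motif GCCNNNGGC in 1 of the 9, against 16.5%. No match of CACGTG overlapped one of GGCGCC in the promoters shown.

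The levels behind these counts differed between the 2 BP14A arrays. Dazl, an RNA-binding protein that licenses germ cells for gamete development, read 8.74 and 6.80 in BP14A cells and 3.08 and 2.94 in Ck-PGCLCs, a rise of 4.76 (SE 0.55, limma adjusted p = 2.4e-06). The other probe set of Dazl averaged 5.14 in BP14A cells and 4.70 in Ck-PGCLCs, a difference of only 0.44. On the probe sets used, Dazl, Mael and Hormad1 were under 4.05 in Ck-PGCLCs, so the sizes of their rises are uncertain. Mael, a component of the piRNA pathway, read 7.52 and 6.14 in BP14A cells and 3.49 and 3.43 in Ck-PGCLCs (log2 3.37, SE 0.34). Hormad1, a protein of the meiotic chromosome axis, read 7.81 and 5.84 in BP14A cells and 3.64 and 3.49 in Ck-PGCLCs (log2 3.26, SE 0.41). In these 3 genes replicate 1 of BP14A cells was above replicate 2 by more than 1 unit, and both were above both Ck-PGCLC arrays. Ddx4 (Vasa), an RNA helicase of the germ line, had closer arrays, with 9.01 and 8.56 in BP14A cells and 6.29 and 6.24 in Ck-PGCLCs (log2 2.52, SE 0.21). The same genes were already high in EpiLCs, where Dazl averaged 7.37, Mael 9.38, Hormad1 8.18 and Ddx4 8.06. In parental +Dox cells they averaged 0.62, 3.29, 1.95 and 5.78 in that order.

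Among genes of naive pluripotency, the state of the pre-implantation epiblast and of embryonic stem cells, 10 of 17 tested were higher and 3 lower in BP14A cells, with a median difference of 1.76. All 17 listed genes were measured. Pecam1, described below with the endothelial and blood genes, is 1 of the 10 rises here too, and its call depended on single arrays. Fbxo15, an F-box gene of pluripotent cells, read 8.51 and 8.82 in BP14A cells and 5.15 and 5.23 in Ck-PGCLCs (log2 3.48, SE 0.44, limma adjusted p = 6.63e-06). Tcl1, a coactivator of AKT kinase, read 10.42 and 10.43 in BP14A cells and 7.58 and 7.93 in Ck-PGCLCs (log2 2.67, SE 0.23). Klf2, a Krüppel-like factor of the naive network, read 11.49 and 11.54 in BP14A cells and 9.61 and 9.90 in Ck-PGCLCs (log2 1.76, SE 0.30). Both BP14A arrays lay above both Ck-PGCLC arrays for all 3 genes. The nuclear receptor genes Esrrb and Nr0b1 rose by 2.32 (SE 0.53) and 2.79 (SE 0.49).

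Tbx3 ran the other way. This T-box gene, which takes part in the naive network and also responds to BMP, read 5.57 and 5.63 in BP14A cells and 9.27 and 9.08 in Ck-PGCLCs, a fall of 3.57 (SE 0.19, limma adjusted p = 1.47e-10). With the mean of its probe sets the difference was -0.99 and no longer called (limma adjusted p = 0.055). Klf4 read 2.86 and 3.18 in BP14A cells and 4.69 and 5.78 in Ck-PGCLCs, and its call (log2 -2.22, limma adjusted p = 0.0305) was lost when any of 3 arrays was left out, with adjusted p between 0.0788 and 0.252. Tfcp2l1 was not called, with 9.05 and 9.24 in BP14A cells and 8.52 and 8.55 in Ck-PGCLCs. Of the core pluripotency factors, Sox2 rose by 1.80, with 12.48 and 12.39 in BP14A cells and 10.51 and 10.76 in Ck-PGCLCs. Pou5f1 differed by 0.44 and Nanog by 1.10 (SE 0.45, limma adjusted p = 0.0931), and neither was called. In the fit of the 4 arrays alone Nanog was called (limma adjusted p = 0.0193).

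Genes of the primed epiblast split, with 4 of 18 tested higher and 4 lower and a median difference of -0.08. Fgf5, a growth factor that marks the post-implantation epiblast, read 7.95 and 7.46 in BP14A cells and 4.68 and 3.78 in Ck-PGCLCs (log2 3.47, SE 0.41, limma adjusted p = 2.62e-06). Parental +Dox cells and EpiLCs had more than either, at 10.34 and 9.93. Otx2, a homeobox factor that holds back germ cell entry, read 7.43 and 6.04 in BP14A cells and 3.67 and 3.98 in Ck-PGCLCs (log2 2.91, SE 0.39). Sox3, by contrast, fell to 6.01 and 6.10 in BP14A cells, against 9.36 and 9.72 in Ck-PGCLCs (log2 -3.49, SE 0.25). Pou3f1 was low in both, with 6.73 and 6.38 in BP14A cells and 6.16 and 6.41 in Ck-PGCLCs, against 12.03 in EpiLCs.

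Of 13 tested genes of DNA methylation, 3 were higher and 0 lower in BP14A cells. Dnmt3l, which codes for a catalytically inactive partner of DNMT3A and DNMT3B, read 8.54 and 8.13 in BP14A cells and 4.51 and 4.84 in Ck-PGCLCs (log2 3.66, SE 0.26, limma adjusted p = 4.9e-09), and EpiLCs averaged 11.16. The methyltransferase genes Dnmt3a and Dnmt3b were not called. Dnmt3b read 8.80 and 9.20 in BP14A cells and 10.50 and 10.94 in Ck-PGCLCs (log2 -1.72, limma adjusted p = 0.0519), and it was called in the fit of the 4 arrays alone (limma adjusted p = 0.0211). Dnmt3a differed by 0.07. Uhrf1, which recruits the maintenance methyltransferase, read 7.79 and 9.20 in BP14A cells and 8.92 and 9.71 in Ck-PGCLCs, with overlapping arrays. Gadd45a, a stress gene tied to demethylation, rose by 2.55 (SE 0.15). Tet1 was called too, with 11.28 and 11.17 in BP14A cells and 9.42 and 9.75 in Ck-PGCLCs (log2 1.64). With the mean of its probe sets Tet1 differed by 0.24 and was not called (limma adjusted p = 0.44). The methyltransferases of histone H3 lysine 9, Ehmt1 and Ehmt2, differed by -0.16 and 0.18 and were not called.

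**Figure D3:**
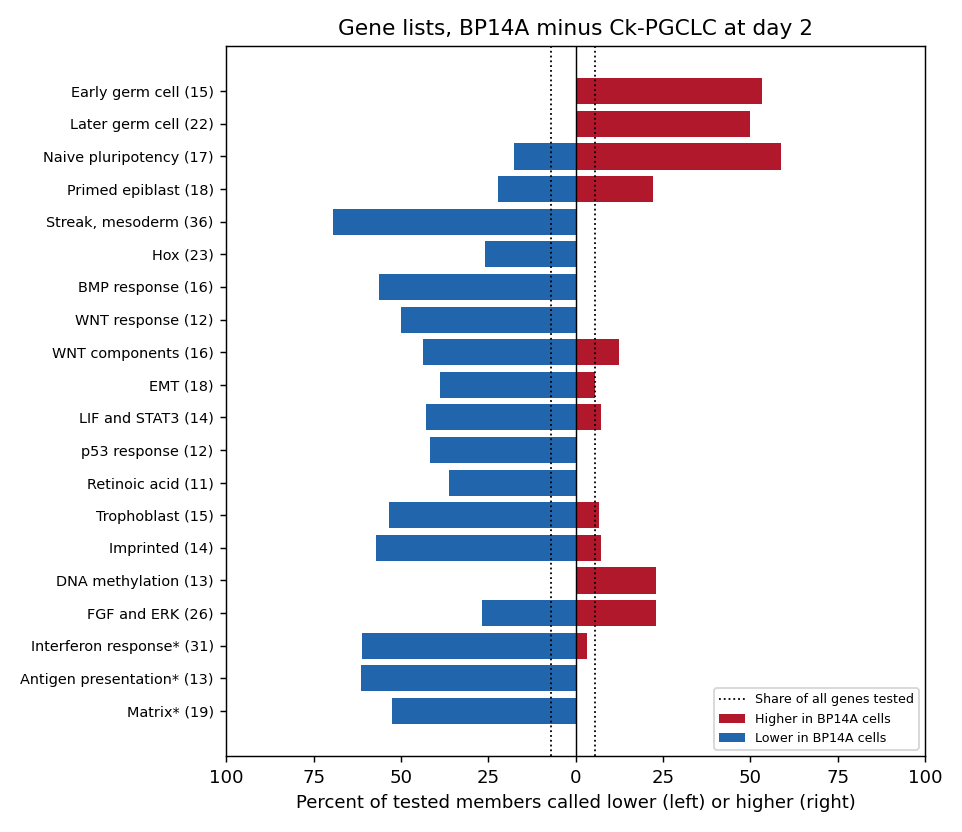
Percent of tested members of 20 gene lists called lower (blue, left) or higher (red, right) in BP14A cells than in Ck-PGCLCs at day 2, with the number tested in brackets. Dotted lines mark the shares over all tested genes, 7.01% lower and 5.55% higher, and lists with an asterisk were put together after values had been seen. Germ cell and naive lists extend to the right, and streak, BMP, WNT, interferon and imprinted lists to the left.

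In BP14A cells 25 of 36 tested genes of the streak and mesoderm list were lower and 0 higher, with a median difference of -2.86. The list held 37 genes and 36 were measured. Evx1, a homeobox gene of the posterior streak, read 3.73 and 3.78 in BP14A cells and 11.02 and 11.04 in Ck-PGCLCs, a fall of 7.27 (SE 0.24, limma adjusted p = 2.05e-13). Cdx2, a caudal-type factor active in trophoblast and the tail end of the embryo, read 2.22 and 0.78 in BP14A cells and 9.13 and 9.01 in Ck-PGCLCs (log2 -7.57, SE 0.79). Mixl1, a homeobox gene of the streak, read 2.27 and 3.47 in BP14A cells and 8.95 and 8.71 in Ck-PGCLCs (log2 -5.96, SE 0.74). The levels in BP14A cells were below 4.05 for all 3 genes, and the groups were far from overlapping. Eomes was the smallest called fall of the list at 1.17, with 6.84 and 7.02 in BP14A cells and 8.04 and 8.16 in Ck-PGCLCs, and its call was lost without any 1 of the 4 arrays (limma adjusted p between 0.0503 and 0.107).

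Hox genes, which set position along the body axis, were called in 6 of 23 tested cases, all lower. Hoxb1 read 2.45 and 2.27 in BP14A cells and 10.63 and 11.01 in Ck-PGCLCs (log2 -8.46, SE 0.46, limma adjusted p = 1.55e-10). The levels of Hoxb1 in BP14A cells were under 4.05, so the size of its fall is uncertain. Hoxb2 read 3.57 and 2.14 in BP14A cells and 9.42 and 9.51 in Ck-PGCLCs (log2 -6.61, SE 0.59). Both genes were as high in parental +Dox cells, where Hoxb1 averaged 11.22 and Hoxb2 9.92. Hoxd9 did not share this, reading 4.08 and 4.11 in BP14A cells and 6.92 and 6.98 in Ck-PGCLCs, with 3.85 in parental +Dox cells.

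WNT response genes were called in 6 of 12 tested cases, all lower, with a median difference of -1.18. The median was -1.87 without replicate 1 of BP14A cells and -0.93 without replicate 2. Sp5, a direct target of WNT signalling, read 3.82 and 3.41 in BP14A cells and 9.80 and 9.39 in Ck-PGCLCs (log2 -5.98, SE 0.48, limma adjusted p = 2.25e-08). Axin2, a feedback inhibitor, read 5.45 and 5.82 in BP14A cells and 10.12 and 9.85 in Ck-PGCLCs (log2 -4.35, SE 0.51), and Dkk1, a secreted inhibitor, fell by 5.71 (SE 0.40). Of the ligands and modulators, 7 of 16 tested were lower and 2 higher. Wnt3a read 2.17 and 2.46 in BP14A cells and 7.63 and 7.81 in Ck-PGCLCs (log2 -5.41, SE 0.99), and the WNT agonist gene Rspo3 read 4.58 and 4.58 in BP14A cells and 10.25 and 10.50 in Ck-PGCLCs (log2 -5.79, SE 0.45). The rise of the receptor gene Fzd7 (log2 1.10) turned to -0.41 when all its probe sets were averaged. The other probe set of Fzd7 lay under 4.05 in both groups, averaging 0.74 in BP14A cells and 2.68 in Ck-PGCLCs.

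BMP response genes were called in 9 of 16 tested cases, all lower, with a median difference of -2.54. Id1, an inhibitor of differentiation and direct target of BMP signalling, read 6.67 and 6.83 in BP14A cells and 12.86 and 12.86 in Ck-PGCLCs, a 68.9-fold fall (log2 -6.11, SE 0.19, limma adjusted p = 1.06e-13). Bmper, a secreted BMP regulator, read 3.01 and 2.78 in BP14A cells and 7.88 and 8.24 in Ck-PGCLCs (log2 -5.16, SE 0.59). Msx2, a homeobox target of BMP, read 4.19 and 4.84 in BP14A cells and 9.23 and 9.95 in Ck-PGCLCs (log2 -5.08, SE 0.42). Id3 fell by 1.92 (SE 0.36). Id2, whose arrays spread widely, was not called, with 3.07 and 5.52 in BP14A cells and 6.78 and 9.48 in Ck-PGCLCs (log2 -3.84, SE 1.65, limma adjusted p = 0.115), and with the replicate block its limma adjusted p was 0.0265. Of the pathway's own components, 2 of 14 tested were lower and 1 higher. Bmp4 itself read 6.55 and 6.29 in BP14A cells and 10.52 and 10.76 in Ck-PGCLCs (log2 -4.22, SE 0.27), and Smad1, a signal transducer of BMP, fell by 1.77 (SE 0.30). The other probe sets of Smad1 differed by -1.71 and 0.23.

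Both inductions were also set against parental +Dox cells. BP14A cells differed from them at 13.9% of the genes tested, with 1028 higher (6.63%) and 1123 lower (7.25%). Ck-PGCLCs differed from them at 3.73%, with 360 higher (2.32%) and 218 lower (1.41%). The 2 comparisons share the parental +Dox arrays. Parental +Dox cells share their clone with Ck-PGCLCs but not with BP14A cells, and doxycycline with BP14A cells but not with Ck-PGCLCs. The shares of 13.9% and 3.73% therefore do not compare like with like. Hoxb1 differed from parental +Dox cells by -8.86 in BP14A cells and by -0.41 in Ck-PGCLCs, Sp5 by -7.50 in BP14A cells and -1.51 in Ck-PGCLCs, and Fst, which codes for the activin antagonist follistatin, by -8.52 in BP14A cells and -0.83 in Ck-PGCLCs. Only the values of BP14A cells were called. Hand1, a bHLH gene of extraembryonic mesoderm and heart, differed by 0.57 in BP14A cells and by 7.39 in Ck-PGCLCs, Msx2 by 0.74 in BP14A cells and 5.82 in Ck-PGCLCs, and Bmper by -0.08 in BP14A cells and 5.09 in Ck-PGCLCs. For these 3 genes only the values of Ck-PGCLCs were called. Id1 was called on both sides, at -2.49 in BP14A cells and 3.62 in Ck-PGCLCs. Of the primitive streak and mesoderm list, 0 genes were higher and 18 lower in BP14A cells than in parental +Dox cells, and 11 were higher and 4 lower in Ck-PGCLCs. Of the BMP response list, 3 were higher and 3 lower in BP14A cells, and 11 higher and 0 lower in Ck-PGCLCs. Of the early germ cell list, which includes genes of the transgenes, 14 were higher and 1 lower in BP14A cells, and 9 higher and 0 lower in Ck-PGCLCs.

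Genes of the LIF and STAT3 pathway, which one of the cytokines activates, were lower in 6 of 14 tested cases and higher in 1. The other 7 were not called, and the median difference of the list was -0.11. Stat3, named after its values were seen, read 7.50 and 7.29 in BP14A cells and 9.42 and 9.27 in Ck-PGCLCs (log2 -1.95, SE 0.17, limma adjusted p = 5.71e-08). Socs3, its feedback inhibitor, read 4.65 and 4.93 in BP14A cells and 7.48 and 7.65 in Ck-PGCLCs (log2 -2.78, SE 0.44), and Gbx2, a STAT3 target in stem cells, fell by 4.13 (SE 0.33). FGF and ERK genes split, with 6 of 26 tested higher and 7 lower. Fgf8, a ligand of the streak, read 3.62 and 3.06 in BP14A cells and 8.59 and 9.31 in Ck-PGCLCs (log2 -5.61, SE 0.46). Egr1, an immediate early gene of ERK signalling, fell by 3.74 (SE 0.29), and the receptor gene Fgfr2 read 8.79 and 7.87 in BP14A cells and 6.28 and 6.39 in Ck-PGCLCs (log2 2.00, SE 0.33), a difference of 0.90 and under 2-fold with the mean of its probe sets.

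Cytoskeletal and adhesion genes of the epithelial-mesenchymal transition were lower in 7 of 18 tested cases and higher in 1. Vim, the mesenchymal intermediate filament, read 6.37 and 7.18 in BP14A cells and 12.43 and 12.59 in Ck-PGCLCs (log2 -5.74, SE 0.29, limma adjusted p = 1.12e-10). Cdh2 (N-cadherin) read 4.99 and 4.56 in BP14A cells and 9.86 and 10.18 in Ck-PGCLCs (log2 -5.24, SE 0.29). The epithelial keratin gene Krt8 fell alongside them, with 7.79 and 7.92 in BP14A cells and 12.09 and 12.07 in Ck-PGCLCs (log2 -4.22, SE 0.25). Pdgfrb, the receptor for platelet-derived growth factor on mesenchyme, fell by 7.81 (SE 0.72) and the matrix protease gene Mmp2 by 6.76 (SE 0.37). Pdgfrb read only 0.21 and 0.93 in BP14A cells and its other probe set differed by -3.72, so the size of its fall is uncertain. Markers of other cell types moved in both directions. Trophoblast genes were lower in 8 of 15 tested cases and higher in 1, endoderm genes lower in 5 of 15 and higher in 1, and fibroblast and feeder genes lower in 2 of 11 and higher in 1. Neural genes were lower in 2 of 13 and higher in 1. Endothelial and blood genes were higher in 2 of 15 and lower in 1, with a median difference of 0.40. Over all tested genes 5.55% were higher and 7.01% lower, so no direction is read from the small fibroblast, neural and endothelial counts. Among the endothelial and blood genes, Tek, an endothelial receptor kinase, read 6.67 and 6.02 in BP14A cells and 4.23 and 4.12 in Ck-PGCLCs (log2 2.17, SE 0.28). Pecam1, an adhesion protein of endothelium that is also found on pluripotent cells, read 6.93 and 7.06 in BP14A cells and 3.17 and 3.94 in Ck-PGCLCs (log2 3.44, SE 0.97), and its call was lost without either BP14A array or without replicate 1 of Ck-PGCLCs (limma adjusted p between 0.064 and 0.11). The call of Krt7, the 1 trophoblast rise, was lost without any 1 of the 4 arrays (limma adjusted p between 0.0713 and 0.208). That of Dcn, the 1 fibroblast rise, was lost without replicate 1 of BP14A cells (limma adjusted p = 0.333) or without either Ck-PGCLC array (0.132 and 0.157).

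Imprinted genes, expressed from 1 parental allele, were lower in 8 of 14 tested cases and higher in 1, with a median difference of -1.22. Cdkn1c, a growth-restraining inhibitor of the cell cycle, read 6.46 and 6.38 in BP14A cells and 10.65 and 10.79 in Ck-PGCLCs (log2 -4.30, SE 0.34, limma adjusted p = 2e-08). Phlda2, a placental growth regulator, read 8.80 and 9.12 in BP14A cells and 12.37 and 12.52 in Ck-PGCLCs (log2 -3.48, SE 0.19), and Mest rose by 1.64 (SE 0.32). Genes of the p53 response were lower in 5 of 12 tested cases and higher in 0. Cdkn1a (p21), a cell cycle inhibitor, read 5.87 and 6.92 in BP14A cells and 9.95 and 10.18 in Ck-PGCLCs (log2 -3.67, SE 0.51). Cholesterol synthesis had 0 of 13 and oxidative phosphorylation 0 of 20 tested genes called by limma, with 5 and 1 genes at an unadjusted p under 0.05. The Y-linked gene Eif2s3y read 7.73 and 6.68 in BP14A cells and 8.82 and 8.82 in Ck-PGCLCs (log2 -1.62), a call lost in the fit of these 4 arrays alone (limma adjusted p = 0.0648) and with the mean of its probe sets (limma adjusted p = 0.127).

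Several of the steepest single-gene rises belonged to no list. Msc (musculin), a bHLH repressor, read 8.85 and 9.12 in BP14A cells and 5.02 and 3.58 in Ck-PGCLCs (log2 4.68, SE 0.45, limma adjusted p = 2.21e-07). Btbd11 read 9.75 and 9.60 in BP14A cells and 5.22 and 5.54 in Ck-PGCLCs (log2 4.30, SE 0.22). Stat4, a transcription factor downstream of cytokine receptors in immune cells, read 9.83 and 9.63 in BP14A cells and 5.74 and 5.56 in Ck-PGCLCs (log2 4.08, SE 0.20). Rec114, needed for meiotic DNA breaks, read 9.55 and 8.12 in BP14A cells and 4.67 and 4.88 in Ck-PGCLCs (log2 4.06, SE 0.32). Each had both BP14A arrays above both Ck-PGCLC arrays. The rise of Insyn1 lost its call without replicate 1 of BP14A cells (limma adjusted p = 0.0632).

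Genes induced by interferon were lower in BP14A cells in 19 of 31 tested cases and higher in 1, with a median difference of -1.90. This list and that of antigen presentation were put together after Gbp2, Irgm2 and Psmb8 had been seen among the 15 largest falls, so their counts are descriptions without independent weight. Of the interferon list, 33 of 37 genes were measured. The promoters of the 4 called members with the largest differences and a RefSeq entry are shown because interferon-induced genes are known to carry sites for STAT and IRF factors. In capitals are matches on either strand to the STAT-type motif TTCNNNGAA and the IRF-type motif GAAANNGAA, both of which were searched only after the values were known. Gbp2 lies at chr3:142620413-142620712, Irgm2 at chr11:58214727-58215026 and Oasl2 at chr5:114896684-114896983, all on the plus strand, and Ifih1 at chr2:62646206-62646505 on the minus strand.
Gbp2: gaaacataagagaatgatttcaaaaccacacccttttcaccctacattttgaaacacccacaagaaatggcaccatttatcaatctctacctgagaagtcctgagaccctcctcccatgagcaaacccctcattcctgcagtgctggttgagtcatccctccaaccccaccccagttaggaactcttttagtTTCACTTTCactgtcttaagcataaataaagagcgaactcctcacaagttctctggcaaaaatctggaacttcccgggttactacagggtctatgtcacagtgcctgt
Irgm2: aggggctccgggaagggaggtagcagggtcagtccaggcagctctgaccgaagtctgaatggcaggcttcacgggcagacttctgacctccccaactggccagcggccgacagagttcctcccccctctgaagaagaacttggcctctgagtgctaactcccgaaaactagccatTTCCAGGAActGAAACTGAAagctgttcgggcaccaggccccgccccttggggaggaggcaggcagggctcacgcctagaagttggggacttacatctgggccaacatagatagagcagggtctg
Oasl2: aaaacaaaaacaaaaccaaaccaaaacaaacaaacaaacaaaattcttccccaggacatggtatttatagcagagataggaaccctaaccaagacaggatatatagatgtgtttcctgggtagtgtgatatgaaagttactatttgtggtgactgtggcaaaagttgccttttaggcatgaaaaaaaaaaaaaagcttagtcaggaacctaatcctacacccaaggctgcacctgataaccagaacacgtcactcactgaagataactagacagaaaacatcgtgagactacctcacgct
Ifih1: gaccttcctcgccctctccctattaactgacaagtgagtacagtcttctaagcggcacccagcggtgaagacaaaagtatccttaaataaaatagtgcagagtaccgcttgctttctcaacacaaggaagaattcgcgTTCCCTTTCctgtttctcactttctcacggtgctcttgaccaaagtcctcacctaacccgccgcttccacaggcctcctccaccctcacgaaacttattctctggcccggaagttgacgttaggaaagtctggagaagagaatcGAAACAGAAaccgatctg
Of the 15 lower members with a promoter entry, 9 held GAAANNGAA and 7 held TTCNNNGAA, against 8.57% and 8.47% of all 27025 promoters. In those shown, Gbp2 and Ifih1 hold the first motif, Irgm2 holds both, and no match was found in this window of Oasl2.

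Gbp2, an interferon-induced GTPase, read 3.41 and 2.45 in BP14A cells and 10.43 and 10.32 in Ck-PGCLCs, a fall of 7.45 (SE 0.60, limma adjusted p = 2.43e-08). Irgm2, an immunity-related GTPase, read 0.91 and 2.41 in BP14A cells and 8.01 and 8.19 in Ck-PGCLCs (log2 -6.44, SE 0.63). Usp18, which removes the ubiquitin-like ISG15, read 2.41 and 2.68 in BP14A cells and 7.81 and 7.93 in Ck-PGCLCs (log2 -5.33, SE 0.47), and it was named after its values were seen, as were Oasl2, Ifih1, Ddx58, Erap1, B2m, Ifnar2 and Jak2. Levels in BP14A cells were under 4.05 for all 3 genes, so the sizes of these falls are uncertain, and the groups did not overlap. The RNA sensor gene Ddx58 was the 1 member that was higher (log2 1.52, SE 0.35), and it lost its call with the mean of all probe sets. Of the same list, 2 genes were higher and 12 lower in BP14A cells than in parental +Dox cells, and 15 were higher and 0 lower in Ck-PGCLCs. Gbp2 averaged 8.16, Irgm2 5.41 and Usp18 5.09 in parental +Dox cells, between the 2 induced groups.

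Genes that cut and load peptides for MHC class I were lower in 8 of 13 tested cases and higher in 0, with a median difference of -2.0. With the mean of all probe sets 7 were lower and the median was -1.01, and Tap1, which codes for a peptide transporter subunit and was named after its values were seen, was no longer called (log2 -0.56, limma adjusted p = 0.135). Psmb8, a subunit of the immunoproteasome, read 4.32 and 2.75 in BP14A cells and 10.17 and 10.25 in Ck-PGCLCs (log2 -6.67, SE 0.54, limma adjusted p = 2.32e-08). Erap1, which trims peptides in the endoplasmic reticulum, read 4.51 and 3.52 in BP14A cells and 9.41 and 9.23 in Ck-PGCLCs (log2 -5.30, SE 0.31). B2m, the invariant chain of MHC class I, read 8.50 and 8.57 in BP14A cells and 10.53 and 10.53 in Ck-PGCLCs (log2 -2.0, SE 0.27). The receptor subunit gene Ifnar2 fell by 1.70 (SE 0.31) and the kinase gene Jak2 by 1.61 (SE 0.21), 2 of 8 tested receptor, ligand and kinase genes, with 0 higher.

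**Figure D4:**
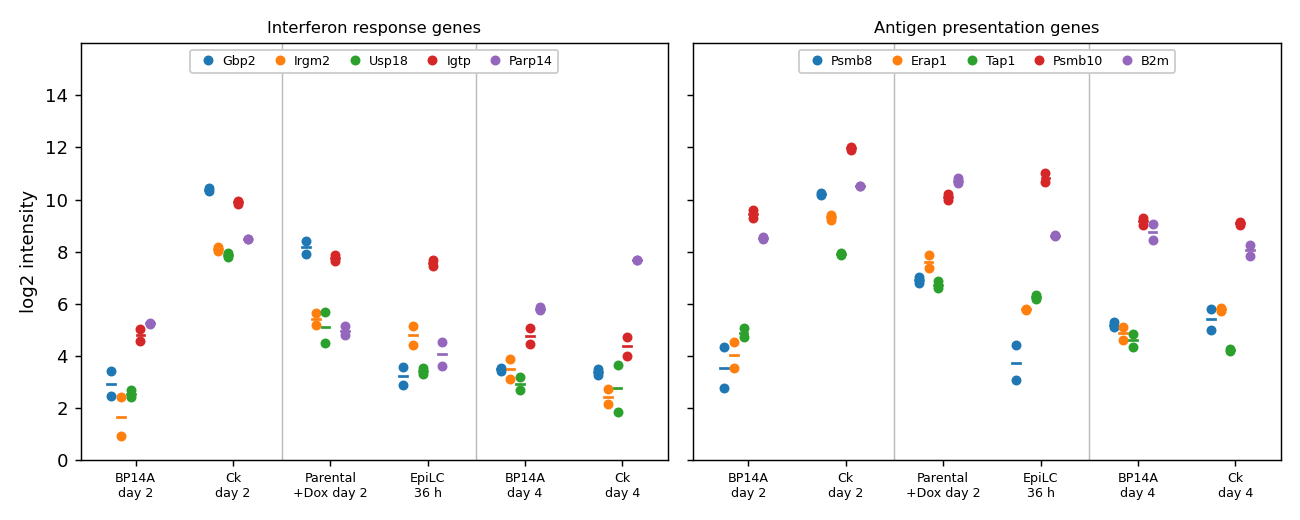
log2 intensity of each array (points) and the mean of 2 arrays (bars) for 5 interferon response genes (left) and 5 antigen presentation genes (right), in BP14A cells and Ck-PGCLCs at day 2, parental +Dox cells, EpiLCs, and BP14A cells and Ck-PGCLCs at day 4. The 10 genes peak in Ck-PGCLCs at day 2 except B2m, which is as high in parental +Dox cells, and Gbp2 is near 3.47 in BP14A cells and 3.38 in Ck-PGCLCs at day 4.

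Day 4 arrays of the same 2 inductions show how far the day 2 differences persisted. BP14A cells then differed from Ck-PGCLCs at 6.12% of the genes tested, with 525 higher (3.39%) and 424 lower (2.74%). Of the 860 genes higher at day 2, 169 were higher at day 4 and 33 lower, and these 169 are part of the 525. Of the 1086 lower at day 2, 179 were lower at day 4 and 64 higher, out of the 424 and 525. The change of the difference between the days was itself called for 1836 genes, 11.8%, with 6.92% towards a higher and 4.92% towards a lower level in BP14A cells. It ran towards zero or beyond for 450 of the 860 and 699 of the 1086. This test shares the day 2 arrays with the comparison it follows. The Gapdh control probe sets of the BP14A day 4 arrays differed more between the 5′ and 3′ ends (-4.66 and -2.99) than those of the Ck-PGCLC day 4 arrays (-0.47 and -1.62), and the part of this in the day 4 results was not tested. The actin control probe sets did not show this, with -2.28 and -2.96 in BP14A cells and -2.82 and -3.04 in Ck-PGCLCs at day 4. At day 2 the Gapdh measure was -1.03 and -0.58 in BP14A cells and -1.47 and -1.12 in Ck-PGCLCs, and the actin measure ran the other way, with -3.38 and -3.45 in BP14A cells and -2.83 and -2.93 in Ck-PGCLCs.

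Of the early germ cell list, 3 of 15 genes were higher and 1 lower at day 4. Dppa3 averaged 12.96 in BP14A cells and 12.71 in Ck-PGCLCs (difference 0.25, limma adjusted p = 0.618), Prdm1 10.21 in BP14A cells and 10.59 in Ck-PGCLCs, Tfap2c 11.34 in BP14A cells and 12.03 in Ck-PGCLCs, and Kit 10.78 in BP14A cells and 11.64 in Ck-PGCLCs. None of the 4 was called, Kit because its difference of -0.86 (limma adjusted p = 0.0362) was under 2-fold. Of the later germ cell list, 12 of 22 genes were higher in BP14A cells, among them Dazl at 10.32 in BP14A cells and 7.46 in Ck-PGCLCs. Dnmt3l was further apart than at day 2, with 11.14 in BP14A cells and 5.11 in Ck-PGCLCs (log2 6.03, SE 0.26, limma adjusted p = 4.8e-11). Of the streak and mesoderm list, 13 of 36 were lower at day 4. Hand1 averaged 2.49 in BP14A cells and 7.89 in Ck-PGCLCs and remained called (log2 -5.40), while Hoxb1 averaged 3.21 in BP14A cells and 3.19 in Ck-PGCLCs. Of the interferon list 5 of 31 were lower at day 4, and of the LIF and STAT3 list 6 of 14, with Stat3 at 7.50 in BP14A cells and 9.69 in Ck-PGCLCs.

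**Figure D5:**
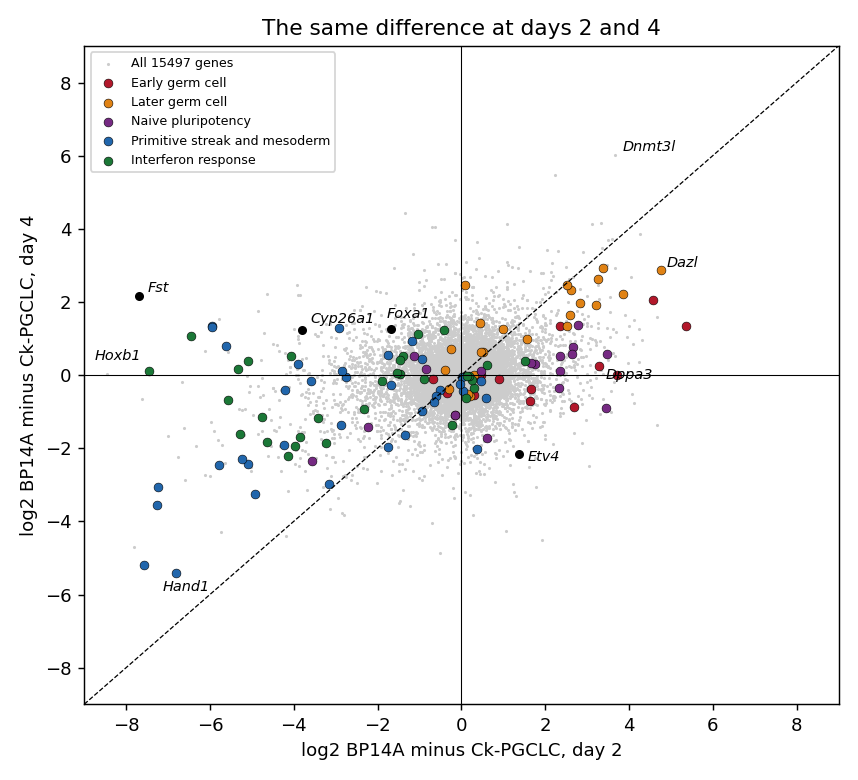
log2 difference BP14A minus Ck-PGCLC at day 2 (horizontal axis) and day 4 (vertical axis) for all tested genes (grey) and 5 gene lists (colours), with the line of equal differences dashed. Dppa3, Prdm1 and Gbp2 lie near 0 on the vertical axis, 12 of 22 later germ cell genes are called above it, and Fst, Cyp26a1, Etv4 and Foxa1 (black) lie on opposite sides of 0 at the 2 days, Foxa1 with all 4 group means under 4.05.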

How the data were processed

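RNA of mouse cells was labelled and read on 1-colour Affymetrix arrays with 45101 probe sets. The values are log2 intensities as the authors deposited them, from 0 to 14.59, so no pseudocount was added. The software for background correction and summarisation is not given in the sources used here. Array medians spanned 0.16, so values were quantile normalized across the 32 arrays. Of the probe sets, 64 were controls, 34945 had 1 gene symbol, 932 had several and 9160 were unnamed here. Of several probe sets for a gene, the brightest on average across the arrays was used, and genes whose highest group mean lay under the 40th percentile of all values were left out.

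One limma 3.58.1 model (R 4.3.3, package data.table, version 1.17.8) held a mean for each of 16 groups, with 16 residual degrees of freedom, and p-values were adjusted with Benjamini-Hochberg over 15497 genes. Scripts were tested on simulated data. Only 2 arrays per group limit the precision.

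The genes named were the 15 largest rises and falls with separate arrays, leaving out clone names, up to 4 rises and 4 falls of each gene list, and a fixed set of germ line, streak and signalling genes. Members and lists were chosen with earlier results of these data known, and the lists of interferon, antigen presentation, interferon receptor and matrix genes after values of this comparison were seen. Alternatives covered normalization, filter, probe sets, thresholds, the arrays fitted, the replicate block and leaving out each array. Some genes, such as Pecam1 and Fgf5, belong to several lists, so the counts of different lists overlap. Promoters came from RefSeq (GRCm38.p6), matching 154 of 210 called list members by symbol.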

Additional observations from a re-analysis of the deposited data

Results flagged for a closer look

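The difference between BP14A cells and Ck-PGCLCs changed between the days by a test of that change (limma interaction over all arrays), with 1073 genes whose difference was larger on the signed scale at day 4 than at day 2 and 763 whose difference was smaller. Fst, Cyp26a1 and Etv4 were called in opposite directions at the 2 days. Fst differed by -7.69 at day 2 and 2.16 at day 4, a change of 9.85, and Cyp26a1, an enzyme that degrades retinoic acid, by -3.81 and 1.22, a change of 5.03. Etv4, an ETS factor downstream of FGF, differed by 1.38 at day 2 and -2.15 at day 4, a change of -3.53. Foxa1, a pioneer factor of endoderm, gave a change of 2.97, but its group means at both days lay under 4.05, within the lowest 40% of all values, so no direction is read from it.

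Of the genes described above, the change of the difference was -3.04 for Dppa3, -3.56 for Kit, -2.05 for Prdm1 and -2.35 for Tfap2c. It was 8.48 for Hoxb1, 7.54 for Gbp2 and 3.37 for Id1. For Dnmt3l it was 2.37, so that its day 4 difference was the larger one. The part of the Gapdh 5′ to 3′ difference of the BP14A day 4 arrays in these values was not tested, and the actin 5′ to 3′ differences of those arrays (-2.28 and -2.96) were no larger than in Ck-PGCLCs at day 4 (-2.82 and -3.04). No group held enough arrays for a test of outlying samples.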

How the results depend on the processing

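The 1946 calls of the day 2 comparison ranged from 1725 to 1912 without 1 array. With no limit on fold change there were 3243 calls (1636 higher and 1607 lower), which follows from the looser threshold. With the values as deposited, 704 genes were higher and 1267 lower, so 35.7% of calls were higher in BP14A cells against 44.2% after quantile normalization, and the median of all genes was -0.055 against 0.048. Averaging all probe sets gave 1567 calls, and the 4 arrays alone gave 1788. Of 773 called genes with several probe sets above the filter, 624 (80.7%) had all of them on the same side. The difference of Fzd7 was -0.41 with the mean of all probe sets and 1.10 with the brightest, and its other probe set lay under 4.05 in both groups. The replicate block gave 1970 calls, 1940 of them shared, and no other call of a named gene changed than that of Id2. The labels do not say whether arrays with the same replicate number were handled together. Deviations of replicate 1 in BP14A cells and Ck-PGCLCs correlated at r = 0.265. The test of change between the days gave 1454 to 1620 calls without 1 array, against 1836 with all. BP14A cells against parental +Dox cells gave 1815 to 2140, and Ck-PGCLCs against parental +Dox cells gave 397 to 469.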

Other observations

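Genes of the extracellular matrix and mesenchyme, a list put together after values had been seen, were lower in BP14A cells than in Ck-PGCLCs in 10 of 19 tested cases at day 2 and higher in 0, with a median difference of -1.13, against 12.6% of all tested genes called in either direction. At day 4, 9 of the 19 were lower and 0 higher, against 6.12% of all genes called. Pdgfrb averaged 2.42 in BP14A cells and 7.13 in Ck-PGCLCs at day 4, and Mmp2 averaged 5.69 in BP14A cells and 7.92 in Ck-PGCLCs, and both remained called.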
